A study of Mus musculus with 4 samples.

Results

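The cells described here were 469 epithelial cells from mouse lung tumors that carried transcripts typical of alveolar type II (ATII) cells and no transcript of Hopx, a gene that marks alveolar type I (ATI) cells and cells on the way to them. They were chosen by raw counts of unique molecular identifiers (UMIs), the molecules counted per gene and cell. Among cells with at least 200 detected genes and at most 13.4% of UMIs from mitochondrial genes, a member had at least 3 UMIs summed over the epithelial genes Epcam, Cdh1, Krt8, Krt18 and Cldn18, no UMI of the leukocyte gene Ptprc, at least 5 UMIs summed over the ATII genes Cxcl15, Slc34a2, Etv5 and Hc, and no UMI of Hopx. The members were 2.36% of the 19892 cells that passed the filters, out of 20351 cells deposited, and 44.0% of the 1067 cells that passed the epithelial and Ptprc criteria. Below, they are called ATII-like cells without a Hopx UMI, or members.

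The study profiled viable cells of microdissected lung tumors from 4 female mice by droplet-based single-cell RNA sequencing, with 2 mice named Restored and 2 named Non-Restored. All carried a Cre-dependent TdTomato allele at Rosa26 and Lkb1XTR/XTR. In the XTR allele, Cre inverts a gene trap that ends transcription of Lkb1 (gene symbol Stk11) early and produces GFP. The trap is excised after tamoxifen by FLPo-ERT2, a recombinase that the Restored mice carried and the Non-Restored mice did not. The Restored genotype label pairs FLPo-ERT2 with TdTomato at Rosa26, while the Non-Restored label names only TdTomato there. The reporter locus thus differed between the cohorts. Tumors were started with a lentivirus that expresses Cre, which can also infect cells outside the epithelium, and grew for 16 weeks; every mouse of either cohort received 4 mg doses of tamoxifen for 2 weeks before harvest. Dead cells were removed by DAPI in the sort, with no gate on TdTomato.

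A single matrix of 31055 features and 58624795 UMIs held every mouse, and a cell in it had a column number but no mouse of origin. No origin was guessed, so Restored and Non-Restored cells were not compared, shared barcodes could not be counted, and the matrix counts as 1 sample with no replicates. No p-value is given. Levels are given as CPM, the UMIs of a gene summed over a group of cells per 1000000 UMIs of that group. Each interval is an exact 95% interval for counting error only and does not cover the spread between mice, and a ratio between groups can also reflect unequal shares of the mice in them, which cannot be told apart here.

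ATII cells are the cuboidal secretory cells of the alveolus. They make surfactant, a film of phospholipid and 4 surfactant proteins that lowers surface tension, store it in lysosome-related organelles called lamellar bodies, and divide to replace themselves and the flat ATI cells that carry out gas exchange. NKX2-1 and C/EBPα are transcription factors known for maintaining the ATII program.

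The comparison used 3 groups. The first held all 19423 other cells that passed the filters, among them 2365 T-cell-gated, 1711 B-cell-gated, 1632 endothelial-gated and 1566 alveolar-macrophage-gated cells. The second held 107 cells that met every criterion but had at least 1 Hopx UMI, and the third held 243 epithelial-gated cells that were below the ATII criterion and had at least 1 Hopx UMI. The 248 remaining epithelial-gated cells, below the ATII criterion and without Hopx, are given for some genes. The members had a median of 4747 UMIs (range 623 to 46443), 1646 genes and 5.07% mitochondrial UMIs. Median depth was 5575 UMIs in the second group, 2794 in the third and 1946 in all other cells. A member sum of 0 UMIs allows a level of up to 1.19 CPM, the level of 3 UMIs.

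Markers that the rule did not use were read as a description of the label. They are not independent of the rule, which asked for epithelial and ATII UMIs and for no Ptprc UMI. Low levels of leukocyte markers thus follow in part from the choice of cells. Sftpc, the surfactant protein gene restricted to ATII cells, had at least 1 UMI in 466 of 469 members, with a median of 571 UMIs. TdTomato, the mark of Cre recombination, had at least 1 UMI in 467 of 469 members (99.6%, 95% interval 98.5 to 99.9). Of the 31 marker genes of myeloid, T and NK, B, endothelial and stromal cells, 2 (Marco and Ms4a1) were at 0 in the members and the 31 together reached 318 CPM (interval 296 to 341), against 19790 CPM in all other cells. The median member had none of these UMIs, the 95th percentile was 0.0616% of a cell's UMIs, and 1 member exceeded 1%. A single member held 254 of the 256 UMIs of Mgp, a stromal marker, and a single one held 20 of the 27 UMIs of C1qa, a macrophage complement gene. Nearly all members thus carried both Sftpc and TdTomato, though TdTomato alone does not mark a tumor cell, since macrophages carried it too (below).

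The absence of a Hopx UMI depended on depth. Among the 576 cells that passed the ATII criterion, 81.4% had no Hopx UMI. When those cells were thinned to a common number of UMIs, the share without Hopx was 95.8% at 1000 UMIs (interval 93.8 to 97.3), 91.4% at 2000 (88.7 to 93.6) and 87.8% at 3000 (84.6 to 90.5). Unthinned, it was 92.4% in the shallowest of 4 equal sets of these cells by depth (median 2874.5 UMIs; interval 86.7 to 96.1) and 74.3% in the deepest (median 8373 UMIs; 66.4 to 81.2). A cell without a Hopx UMI was thus not shown to lack Hopx, and the members and the second group differed in depth as well as in the counted transcript.

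**Figure D1:**
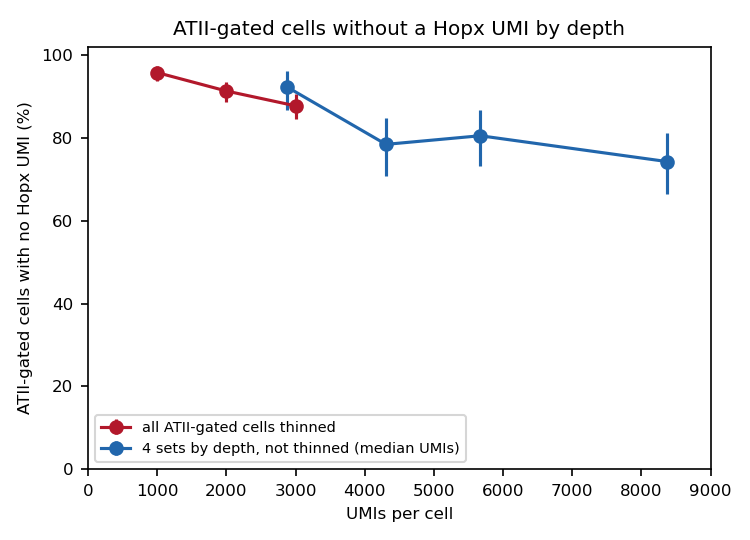
Percent of ATII-gated cells with no Hopx UMI against UMIs per cell, after thinning (red) and in 4 equal sets of the unthinned cells by depth (blue, at the median UMIs of each set), with exact 95% binomial intervals as bars. The share was 95.8% at 1000 UMIs, 87.8% at 3000 UMIs and 74.3% in the deepest set.

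At the edges of the rule, 10 members had exactly 5 UMIs of the ATII genes, with a median of 176 Sftpc UMIs, while 4 cells with 4 such UMIs fell outside with a median of 189. Of the epithelial-gated cells below the ATII criterion with no Hopx UMI, 201 had no UMI of the 4 ATII genes at all and 47 had 1 to 4, and most cells outside that boundary were therefore far from it. At the epithelial edge, 27 members had the minimum of 3 UMIs and 24 cells were left out with 2. At the Hopx edge, 63 of the 107 excluded cells had a single UMI. A further 26 cells met every other criterion but had at least 1 Ptprc UMI.

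The criterion genes themselves are a description of the choice. Cxcl15, a lung-specific chemokine, reached 6508 CPM in the members, Slc34a2, the phosphate transporter of the ATII surface, 4247 CPM, Hc, complement component C5, 327 CPM, and Etv5, an ETS factor, 171 CPM. Cxcl15 was found in 458 members and Slc34a2 in 463, but Etv5 in 229 and Hc in 222.

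For 11 of the 16 genes of the surfactant, lamellar body and ATII criterion sets, RefSeq start-site sequences (build GRCm38.p6, 250 bases before to 50 after the start) were at hand. Sftpc, Sftpd, Napsa, Ctsh and Ank3 had none and were not searched. Each was searched on both strands for CAAGTG (the NKX2-1 core), TTGCNNAA (C/EBP) and TGTTTAC (FOXA). CAAGTG was found for Sftpa1 and Lyz2, TTGCNNAA for Slc34a2, and TGTTTAC for Lamp3 and for Etv5, though not at each Etv5 start site. No motif was found for Hc, Cxcl15, Sftpb, Cd63, Lpcat1 and Abca3. Over all 32851 start-site sequences in the same table, 13.6%, 10.8% and 3.65% held the motifs, respectively. A match is a string of letters, not an occupied site, and no match says only that the letters are not in this window. Sequences of 3 of these genes are shown, 5′ to 3′ on the gene's strand with matches in capitals, as examples that each hold a match of a different motif (Sftpb and Cxcl15, at high levels in the members, held none): Sftpa1 at chr14:41131538-41131837 (+ strand), with 2 matches of CAAGTG on the opposite strand (CACTTG as printed), Slc34a2 at chr5:53049103-53049402 (+ strand), with 1 TTGCNNAA, and Lamp3 at chr16:19706316-19706615 (− strand), with 1 TGTTTAC.
Sftpa1: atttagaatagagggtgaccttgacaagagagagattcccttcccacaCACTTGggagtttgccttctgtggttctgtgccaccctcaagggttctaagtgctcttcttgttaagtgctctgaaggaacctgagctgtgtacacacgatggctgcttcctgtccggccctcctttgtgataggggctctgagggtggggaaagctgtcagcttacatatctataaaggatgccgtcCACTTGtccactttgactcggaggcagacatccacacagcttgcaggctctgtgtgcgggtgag
Slc34a2: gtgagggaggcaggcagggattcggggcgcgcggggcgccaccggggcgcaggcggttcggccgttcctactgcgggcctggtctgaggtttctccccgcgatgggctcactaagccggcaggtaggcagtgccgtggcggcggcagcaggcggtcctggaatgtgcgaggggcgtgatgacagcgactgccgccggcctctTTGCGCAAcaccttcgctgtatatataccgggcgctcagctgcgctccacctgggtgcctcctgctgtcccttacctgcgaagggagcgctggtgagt
Lamp3: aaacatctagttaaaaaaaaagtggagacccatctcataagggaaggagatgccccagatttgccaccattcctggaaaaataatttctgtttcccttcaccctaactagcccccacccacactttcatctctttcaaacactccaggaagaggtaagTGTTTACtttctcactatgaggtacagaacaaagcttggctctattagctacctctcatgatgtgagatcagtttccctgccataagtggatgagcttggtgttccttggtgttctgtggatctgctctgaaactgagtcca

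Surfactant protein genes dominated the members' transcripts. Sftpc alone made up 11.5% of all their UMIs, at 115319 CPM (interval 114900 to 115740), and in single cells it ranged from 0 to 23.1% of UMIs with a median of 11.8%. Sftpa1 and Sftpd, whose proteins bind microbes, reached 16260 and 3687 CPM, and Sftpb, whose peptide is needed for film formation, 9610 CPM. All 4 were past the 2-fold limit used here (log2 ratio of at least 1 after adding 10 CPM, among genes at 50 CPM or more in either group) against all other cells, where 15.7% of the 3381 genes tested were higher in the members and 23.7% were lower. The 4 genes together were at 144876 CPM in the members, 121688 in the second group, 23382 in the third and 106 in T-cell-gated cells, a population that should lack them. Against the third group all 4 were also past 2-fold, with a log2 ratio of their sums of 2.63 (interval 2.61 to 2.65), where 7.49% of 3112 genes were higher in the members and 14.2% lower. Against the second group none was (log2 ratio 0.25, interval 0.24 to 0.26), where 0.155% of 2580 genes were higher and 0.659% lower.

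The genes that process and store surfactant were mostly high as well. Lamp3, a membrane protein of lamellar bodies, was at 744 CPM in the members, 585 in the second group, 25.9 in the third and 0.379 in T-cell-gated cells. After thinning every cell to 1000 UMIs, 50.3% of members (interval 45.7 to 54.9) had a Lamp3 UMI, 29.0% of the second group (20.6 to 38.5) and 2.10% of the third (0.686 to 4.83). The share in T-cell-gated cells was 0.0883%. The intervals of the members and the second group did not overlap at 1000 UMIs but did at 500 UMIs (25.7 to 34.2 against 14.1 to 30.5) and at 2000 (68.8 to 77.2 against 53.3 to 72.4). Abca3, the lipid pump of the lamellar body, was at 507 CPM against 65.3 in the third group, Lpcat1, which remodels surfactant lecithin, at 937 against 122, and Napsa, a protease that trims the surfactant precursors, at 1817 against 733. Ctsh and Cd63, a cathepsin and a tetraspanin of late endosomes, did not pass 2-fold against the third group (1591 against 1651 CPM and 485 against 370 CPM). In all, 6 of 8 genes of this list were higher in the members against all other cells, 5 of 8 against the third group and 0 of 8 against the second, and none was lower.

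Lyz2, the lysozyme gene known from both ATII cells and macrophages, did not pass 2-fold against all other cells, and neither did Cd63. Lyz2 reached 5523 CPM in the members, 333 in the third group and 3560 in the second, but 6001 CPM in all other cells and 19302 in alveolar-macrophage-gated cells. Within the members it was uneven, with 115 cells at 0, a median of 2762 CPM per cell and a highest value of 47872 CPM.

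Lipid synthesis genes were high in the members as a group. Scd1, the desaturase that makes monounsaturated fatty acids, was at 10432 CPM in the members (interval 10306 to 10558), 8090 in the second group, 429 in the third and 220 in all other cells, and it ranked first against all other cells (log2 ratio 5.50 after adding 10 CPM). It was found in 466 of 469 members. Fasn, fatty acid synthase, was at 728 CPM, against 38.2 in the third group, and Elovl1, which lengthens fatty acids, at 1109 against 145. Acly and Acaca, which make acetyl-CoA and malonyl-CoA for this pathway, were at 234 and 66.4 CPM, against 66.5 and 18.5 in the third group. Me1, which supplies NADPH, was at 167 CPM against 41.9, and Srebf1, the transcription factor of this pathway, at 148 CPM against 41.9. Of the 10 of 12 list genes tested, 9 were higher in the members and 1, the lipid droplet gene Plin2, was lower against all other cells (130 against 366 CPM). Against the third group 9 of 10 were higher. Elovl6 had 1 UMI in all members.

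Against the second group none of the 11 lipid genes tested passed 2-fold. Their median log2 ratio, after adding 10 CPM, was 0.41, beside −0.04 over all 2580 genes tested. Srebf1 was at 148 against 72.5 CPM, a log2 ratio of 1.03 without the added 10 CPM, and Fasn at 728 against 498.

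**Figure D2:**
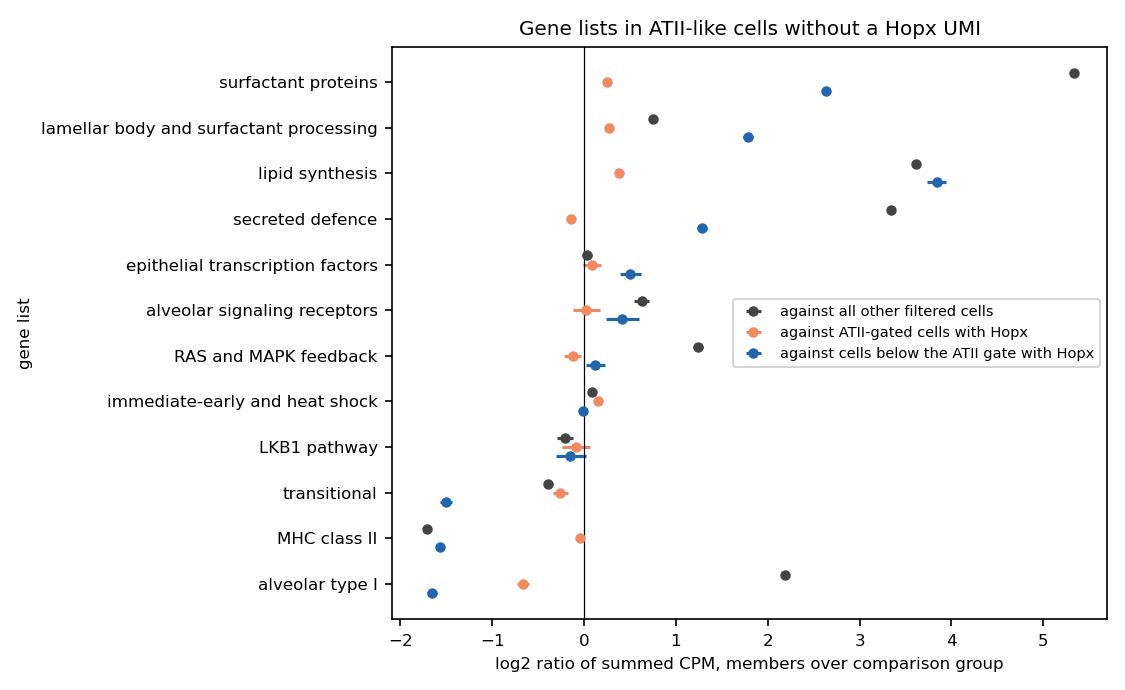
Log2 ratio of the summed CPM of 12 gene lists in the members over each of the 3 comparison groups (points), with exact 95% intervals for counting error as bars, many narrower than the point. Surfactant proteins stood at 5.33 against all other cells, 2.63 against the third group and 0.25 against the second, and the ATI list at 2.18, −1.65 and −0.67.

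The 13 genes of the epithelial transcription factor list summed to 1272 CPM in the members, 1199 in the second group, 897 in the third and 1243 in all other cells. Nkx2-1 was at 211 CPM in the members, 205 in the second group, 224 in the third and 0 in T-cell-gated cells. Foxa2, Gata6, Klf5 and Elf3, further epithelial factors, were at 105, 84.7, 132 and 55.7 CPM and differed by less than 2-fold from the second and the third group after adding 10 CPM. Cebpa and Elf5 departed from this. Cebpa was at 178 CPM (interval 162 to 196) in the members, 130 in the second group and 35.7 in the third. Elf5, an ETS factor of secretory epithelia, was at 91.4 CPM in the members, 60.3 in the second group and 2.46 in the third. The relatives Cebpb and Cebpd were at 113 and 167 CPM, and Cebpb was lower than in all other cells (882 CPM). Over the list, 7 of 10 genes tested were higher and 1 lower against all other cells, 2 of 10 higher against the third group and none past 2-fold against the second.

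ATI genes were present in the members at a lower level than in Hopx-positive epithelium. Ager, the classical ATI receptor, was at 627 CPM in the members (interval 596 to 659), 1066 in the second group and 2435 in the third, and it had a UMI in 383 of 469 members. Aqp5, an ATI water channel, was at 649, 889 and 1162 CPM in the same order. After thinning to 1000 UMIs, 46.5% of members had an Ager UMI (interval 41.9 to 51.1), 54.2% of the second group (44.3 to 63.9), 70.2% of the third (63.9 to 75.9) and 0.132% of T-cell-gated cells. The intervals of the members and the second group overlapped at 1000 UMIs, but not at 500 UMIs (20.9 to 28.9 against 34.3 to 53.9) or at 2000 (57.1 to 66.3 against 70.3 to 86.5), with the lower share in the members each time.

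Other ATI genes were sparse in the members. Akap5, a kinase anchor, was at 7.55 CPM in the members, 65.4 in the second group and 275 in the third. Clic5, a chloride channel protein, was at 64.0, 188 and 543 CPM, and Cav1, of caveolae, at 2.39, 32.7 and 30.8 CPM. Pdpn had 8 UMIs in the members, Rtkn2 had 2 and Igfbp2 had 1. The list thus split into genes that most members carried, such as Ager, Aqp5 and Emp2 (312 CPM), and genes that few carried. Of 7 ATI genes tested, 5 were higher in the members and 1 (Cav1) lower against all other cells. Of 8 tested, none was higher and 6 were lower against the third group, and 2 of 7, Clic5 and Akap5, were lower against the second. The ATI list is not particular to epithelium. It summed to 1974 CPM in the members and 2189 CPM in endothelial-gated cells.

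Genes of transitional cells, which appear between the ATII and ATI states after injury, were mostly lower than in the third group. Krt19 was at 125 CPM in the members, 179 in the second group and 622 in the third, and Krt7 at 109, 188 and 535. Cldn4, a defining gene of that state, had 7 UMIs in all members (2.78 CPM, against 83.8 in the third group). Of 10 such genes, 7 were lower in the members than in the third group and 0 were higher, with a median log2 ratio of −2.05 beside −0.26 over all genes tested. Against the second group none of 6 passed 2-fold. Of 7 tested against all other cells, 3 (Krt19, Krt7 and Areg) were higher and 2 (Lgals3 and Ndrg1) lower. The list is not particular to transitional cells. It summed to 1399 CPM in the members, 3959 in the third group and 3132 in alveolar-macrophage-gated cells. Areg, an EGF receptor ligand in this list, was at 568, 531 and 878 CPM.

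The third group also carried transcripts of other cell types, which were low in the members. Its myeloid markers summed to 2230 CPM, against 139 in the members and 75.6 in the second group. Its ranked genes over the members included Ccl17, Il1b, Cxcl2, Asgr2, Cd52 and Mmp12, known from dendritic cells and macrophages (954 against 1.99 CPM for Ccl17, 899 against 13.9 for Il1b). They also included Fam183b, AU040972 and Tppp3, genes of ciliated airway cells. Fam183b and AU040972 had no UMI in any member, which makes them at least 244-fold and 254-fold lower (3 UMIs over the group as the floor). In the third group 42 of 243 cells had no TdTomato UMI, against 2 of 469 members. Among cells with TdTomato only, the log2 ratio of sums to the third group was 2.26 for surfactant proteins, 3.62 for lipid synthesis, −1.99 for ATI genes, −1.65 for transitional genes and −3.21 for myeloid markers. These lists thus kept their direction, and the myeloid markers stayed higher in the third group, in that restricted comparison.

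Antigen presentation genes of MHC class II, which ATII cells are known to express, were present at moderate levels. Cd74, the invariant chain, had a UMI in 464 of 469 members, at 3413 CPM (interval 3342 to 3486), 3507 in the second group, 8038 in the third and 8417 in all other cells. H2-Aa, H2-Ab1 and H2-Eb1 were at 740, 573 and 403 CPM. Of 7 genes of the list, 6 were lower than in all other cells, which include B cells and macrophages, 5 were lower than in the third group, and none of 6 tested differed 2-fold from the second group. The difference from the third group was smaller among cells with TdTomato only, where the log2 ratio was 0.01 for Cd74 (from −1.24), −0.076 for H2-Aa (from −1.50), −0.70 for H2-Ab1 (from −2.20), −1.03 for H2-Eb1 (from −2.58) and −0.21 for the summed list (from −1.57).

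Several secreted defence genes were high in the members. Lcn2, which withholds iron from bacteria, was at 1591 CPM in the members, 1519 in the second group, 11.1 in the third and 162 in all other cells, and it ranked first among genes higher than in the third group (log2 ratio 6.25 after adding 10 CPM). Chil1, a chitinase-like protein, was at 1349, 1156, 69.0 and 36.4 CPM, and Il33, an alarmin, at 221, 176, 7.39 and 5.31. Lrg1, a secreted glycoprotein that came from the ranking and not from a list, was at 559, 312, 7.39 and 195 CPM, and Itih4, an acute-phase protein, at 190, 113, 1.23 and 3.35. Wfdc2 did not differ 2-fold from the third group (2229 against 2605 CPM), and Ltf had no UMI in any member. Of 9 list genes tested, 6 were higher and 1 lower than in all other cells, and 7 were higher than in the third group, Sftpd counted here as well as among the surfactant proteins. Lyz1 was lower than in the second group (83.5 against 755 CPM), where 1 cell held 683 UMIs and the next 40.

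**Figure D3:**
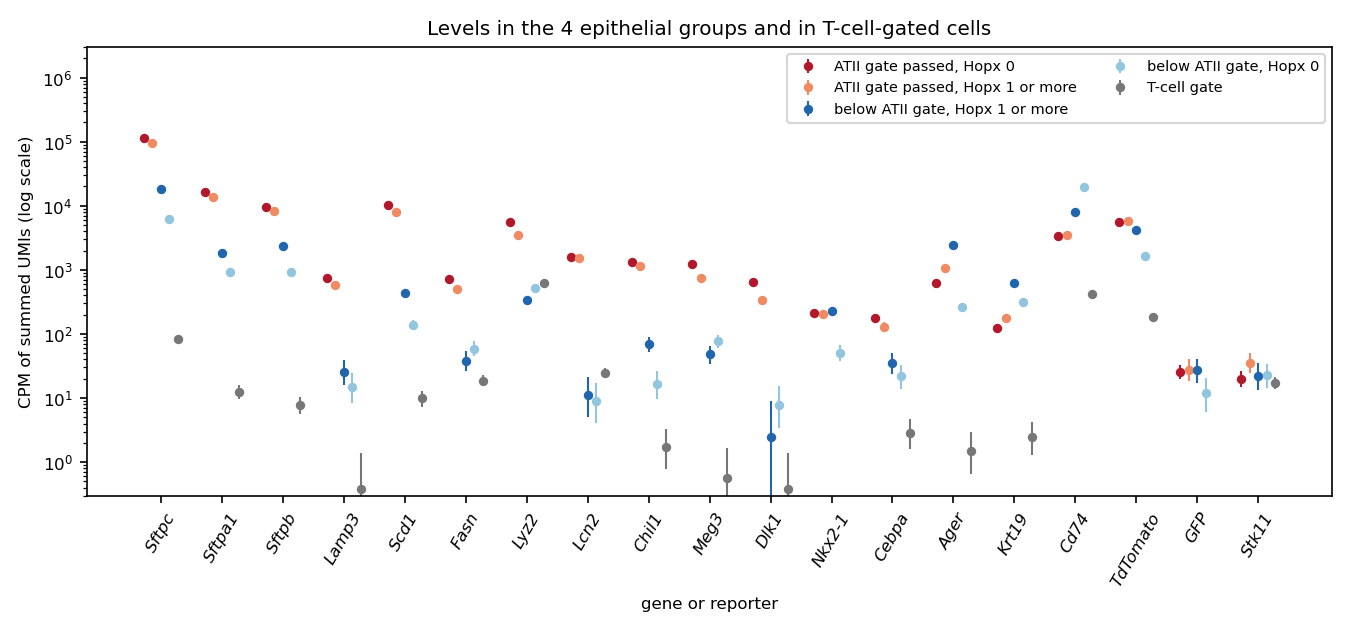
CPM of summed UMIs (log axis) of 19 genes and reporters in the 4 epithelial groups and in T-cell-gated cells, with exact 95% Poisson intervals as bars, and a group with 0 UMIs is not drawn. Both ATII-gated groups lay together at the top for Sftpc to Dlk1, with Lamp3 at 744 and 585 CPM against 25.9 CPM in the third group, while Ager ran the other way (627, 1066 and 2435 CPM) and Nkx2-1 was level across 3 of the groups (211, 205 and 224 CPM).

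Dlk1 and Meg3 were unusual among the leading genes. Dlk1 encodes a membrane ligand related to the Notch ligands, Meg3 is a long noncoding RNA, and they are imprinted neighbors on mouse chromosome 12 (Dlk1 at chr12:109452823-109463336 and Meg3 at chr12:109541001-109571726, both on the + strand, mm10, GENCODE vM21), with 77664 bases between them. Meg3 was at 1227 CPM in the members (interval 1184 to 1271), 745 in the second group, 48.1 in the third and 22.7 in all other cells. Dlk1 was at 635 CPM (604 to 667), 340, 2.46 and 8.39 CPM in the same order. Neither was in a list, and both ranked among the 10 highest genes against all other cells. Both were found in part of the members. Meg3 had a UMI in 256 members and Dlk1 in 141, and 110 had both, or 78.0% of the Dlk1-positive and 43.0% of the Meg3-positive members. Thinned to 1000 UMIs, 42.8% of members had Meg3 (interval 38.3 to 47.5) and 19.1% had Dlk1 (15.6 to 22.9). In the second group they were 38.3% (29.1 to 48.2) and 13.1% (7.34 to 21.0), intervals that overlap those of the members. The shares in the third group were 2.94% and 0%, the latter from 0 of 238 cells, which allows up to 1.26%, and in T-cell-gated cells 0.0883% and 0.0442%.

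Meg3 also varied with the position of a member's column in the matrix. The meaning of that order is not stated, and no mouse or cohort was read from it. In 6 equal sets of members in column order, a division chosen after seeing the data, 41.8% of the first set had a Meg3 UMI, 83.3%, 73.1% and 80.8% of the next 3, and 26.9% and 21.8% of the last 2. Dlk1 had no such step, with shares of 21.8% to 38.5%. The reporter TdTomato moved with the same order, at a median of 6687 to 7469 CPM per cell in the first 4 sets and 3107 and 2670 in the last 2. Dmkn was at 1411 to 1597 CPM in the first 4 sets and 361 and 331 in the last 2, and Gm42418 at 10218 to 12458 and then 3272 and 2842. The median depth of the sets was 4002 to 5470 UMIs in the first 4 and 5861.5 and 6845.5 in the last 2. Sftpc was at 101254 to 124968 CPM and Lcn2 at 1330 to 2138 CPM over the 6 sets. Lyz2 went the other way, at a median of 1238 to 2612 CPM per cell in the first 4 sets and 4625 and 3317 in the last 2. The pooled levels of Meg3, Dmkn, TdTomato, Gm42418 and Lyz2 are thus averages over unlike stretches of the matrix. The part of that order in their ratios between groups was not tested.

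Dmkn, a secreted epithelial protein, and Sfta2, a surfactant-associated protein, were the other genes outside the lists among the 10 ranked highest against all other cells, at 1025 and 2078 CPM against 81.3 and 466 in the third group. Sfta2 had a UMI in 456 members. Ranked lower genes against all other cells were Igkc, Il1b, Cd52, Srgn, Cxcl2, Ccl4, Ccl17, Vim, Cybb and Laptm5, transcripts of leukocytes and, for Vim, of mesenchymal cells, at 1.99 to 31.0 CPM in the members against 606 to 2390 CPM.

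**Figure D4:**
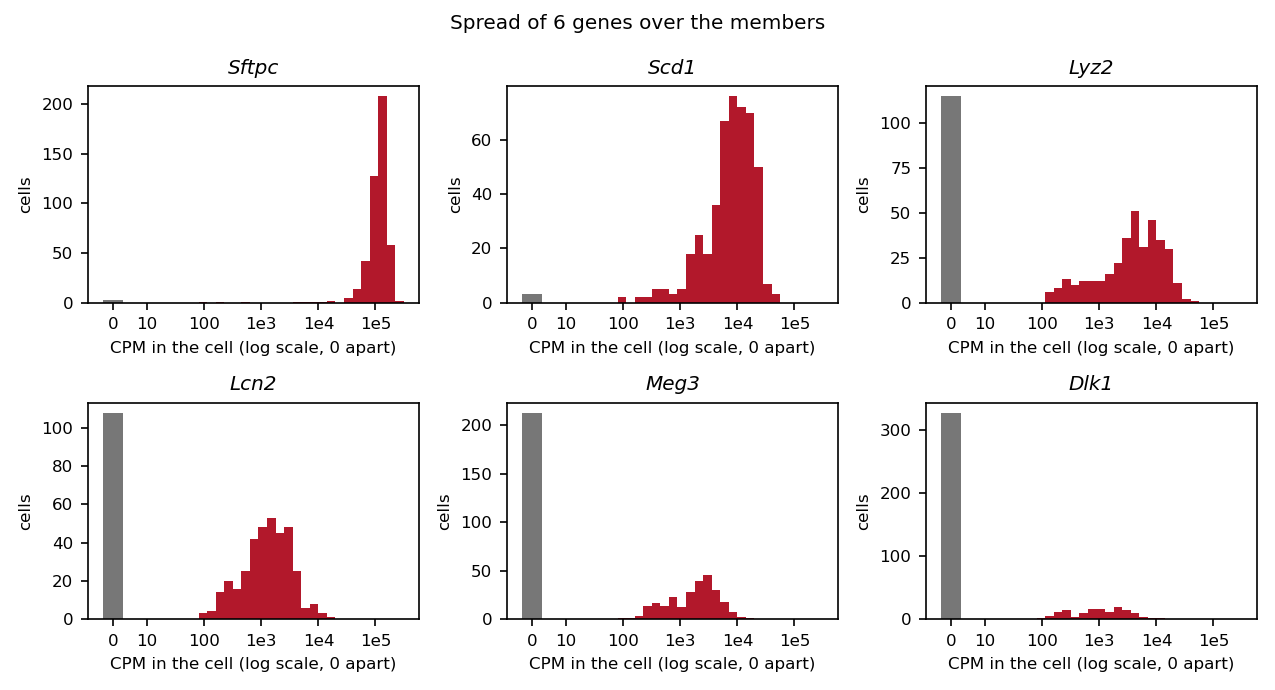
Histograms of the CPM of 6 genes in each of the 469 members (red, log axis, cells with a UMI), with cells at 0 as a gray bar set apart. Sftpc was at 0 in 3 cells and Scd1 in 3, while Lyz2 was at 0 in 115, Lcn2 in 108, Meg3 in 213 and Dlk1 in 328.

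Airway secretoglobins in the members came almost wholly from a single cell. It held 11239 UMIs, of which 5555 were Scgb1a1, the club cell secretoglobin, 1492 Scgb3a1 and 299 Scgb3a2, with no Sftpc and no TdTomato UMI. It passed the ATII criterion through 15 UMIs of Cxcl15 and 4 of Slc34a2. Without it the members' Scgb1a1 fell from 2279 to 70.7 CPM, Scgb3a1 from 594 to 1.20 and Scgb3a2 from 119 to 0, and 437 of 469 members had no Scgb1a1 UMI. The second group held a similar cell with 20203 Scgb1a1 UMIs of 27215 and no TdTomato, and without it that group's Scgb1a1 was 23.1 CPM in place of 20659. Every ratio of these 3 genes between the groups rests on these cells, and they are named here for that reason. Foxj1, of ciliated cells, had 1 UMI in the members, and the basal genes Krt5 and Trp63 and the neuroendocrine gene Calca had none.

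A further 6 members had fewer than 10 Sftpc UMIs. The one with 2733 UMIs was the other member without TdTomato and had 18 Cxcl15 and 16 Sftpb UMIs. The other 5 had TdTomato (15 to 27 UMIs). Of these, 1 had 352 UMIs of S100g, a calcium-binding protein, and 2 others had 34 and 31, so S100g was high in 3 of 5. Sox9, a progenitor gene of the developing lung tip, had 47 UMIs in 25 members, 9 of them in 3 of the 7 members low in Sftpc. Its level was 18.7 CPM in the members (interval 13.7 to 24.8), 3.06 in the second group, from 3 UMIs, and 4.93 in the third. With 467 members with TdTomato and 2 without, the ranked genes of that split (Sftpc, Sftpa1, Lyz2, Cd74 and Napsa higher with TdTomato, Scgb3a1, Scgb1a1, Scgb3a2, Muc5b and Cp higher without) describe the 2 cells and no more.

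TdTomato was at 5624 CPM in the members (interval 5532 to 5717), 5800 in the second group, 4137 in the third and 185 in T-cell-gated cells. Thinned to 1000 UMIs, 96.8% of members had it (94.8 to 98.2), 96.3% of the second group (90.7 to 99.0), 78.6% of the third (72.8 to 83.6), 14.6% of T-cell-gated cells and 79.9% of alveolar-macrophage-gated cells. GFP, the trap reporter, was sparse. It was at 25.8 CPM in the members (19.9 to 32.9), from 65 UMIs in 56 cells, 27.6 in the second group and 27.1 in the third. It had no UMI in T-cell, B-cell or endothelial-gated cells. Stk11 (chr10:80115803-80130682, + strand, mm10, GENCODE vM21) was at 19.9 CPM in the members (14.8 to 26.2), from 50 UMIs in 48 cells, against 21.4 in all other cells and 35.8 in the second group. Both GFP and Stk11 were found in 4 members. Cells were not grouped by either transcript. Of the 21 genes of the LKB1 pathway list, 3 reached 50 CPM against all other cells. Of these, 1, Crtc3, was lower (22.3 against 76.6 CPM), beside 23.7% of all 3381 genes tested. None of 2 tested passed 2-fold against either epithelial group.

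RAS and MAPK feedback genes, which are induced by the pathway they dampen, were mostly higher than in all other cells and within 2-fold of the epithelial groups. Spry1 was at 133 CPM in the members, 118 in the second group and 82.5 in the third, Spry2 at 126, 123 and 85.0, and Dusp6 at 78.3, 86.8 and 75.2. Of 8 genes, 5 were higher and 1 lower against all other cells, beside 15.7% and 23.7% of all genes tested. None of 7 passed 2-fold against either epithelial group. Among receptors of alveolar signals, Fgfr2, whose ligands maintain ATII cells, was at 121 CPM in the members, 90.9 in the second group and 22.2 in the third. Of 6 receptor genes tested, 1, Fgfr2, was past 2-fold higher than in the third group, beside 7.49% of all 3112 genes tested. Immediate-early and heat shock genes, which dissociation at warm temperature is known to raise, summed to 7113 CPM in the members, 6393 in the second group and 7180 in the third.

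Cell-cycle genes had few UMIs. The 12 genes summed to 109 UMIs in 30 members (43.3 CPM, interval 35.6 to 52.3), against 15.3 CPM in the second group, 78.9 in the third and 153 in all other cells. The 5 members with at least 5 such UMIs held 77 of the 109, and 1 held 47. Thinned to 1000 UMIs, 3 of 467 members had 2 or more of the genes detected (0.642%, interval 0.133 to 1.87), against 3.27% of T-cell-gated cells. Gastric genes, which appear in lung tumors that lose NKX2-1, summed to 14 UMIs over 10 genes.

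Against the ATII-gated cells with Hopx, the members differed in few genes. Of 2580 genes, 4 were past 2-fold higher (Scgb3a1, Apoe, Ly6c2 and Chil3) and 17 lower. Scgb3a1 is the single cell above, 1 member held 91 of the 206 Apoe UMIs, and 1 held 63 of the 161 UMIs of Chil3, a macrophage gene. Ly6c2 had 275 UMIs spread over 152 members (109 against 41.9 CPM). Next in rank were Srebf1, Dlk1, Unc119, Tmem252, Lrg1, Dmkn and Rab27a, a GTPase of secretory vesicles, with log2 ratios of 0.80 to 0.94 after adding 10 CPM, all under the limit. The ranked lower genes outside the secretoglobins and Lyz1 were Akap5, Sec14l3, Ndnf, Clic5, Col4a4, S100a6 and Cryab. S100a6, a calcium-binding protein, was at 430 CPM against 1094, and in the third group it was at 8203. Sec14l3, a lipid-binding protein, was at 10.7 against 68.4, and 331 in the third group. Over the alternatives, the log2 ratio of these 7 genes stayed below 0 and was weakest for Col4a4, at −0.32. Each was higher still in the third group, so in the second group they lay between the members and the Hopx-positive cells below the ATII criterion. The first step of that order is fixed, since the genes were picked as lower in the members than in the second group. The groups themselves are also set by the ATII and Hopx counts of the rule. The second group was deeper than the members (median 5575 against 4747 UMIs), and the part of depth in these ratios was not tested. These counts were not stable, since with the criteria read on cells thinned to 2000 UMIs 72 genes were higher and 72 lower. Thinning also moves cells between the 2 groups. Of the ATII-gated cells thinned to 2000 UMIs, 91.4% had no Hopx UMI, against 81.4% unthinned. The part of the number of cells left with Hopx in these counts was not tested.

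Members differed from each other most in a few abundant transcripts. With each of 467 cells thinned to 1000 UMIs, the ratio of variance to mean, which is 1 for counting noise alone, had a median of 1.11 over 533 genes. Apart from Scgb1a1 and Scgb3a1, which rest on 1 cell, the highest were Malat1 (22.1), Retnla (21.9), Gm42418 (14.2), Sftpc (13.8), Lyz2 (9.45), Sftpa1 (6.38), Scd1 (6.13), Mt1 (5.84), Tmsb4x (5.41), S100a6 (4.91), S100g (4.58), Lcn2 (3.82) and Dlk1 (3.75). Malat1 is a nuclear RNA and Gm42418 an annotated RNA known to collect ribosomal reads, and both are often read as signs of RNA quality. Retnla, a secreted cytokine of allergic inflammation, had 2684 UMIs in 176 members, 443 of them in 1.

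Some of these genes varied together across members. Among the 10 highest genes outside the criteria and the other-lineage markers, Spearman correlations over 467 cells at 1000 UMIs ran from −0.34 (Lyz2 with Malat1) to 0.37 (Lyz2 with Sftpa1), with a median of −0.04 over 45 pairs. Among the 25 highest genes at 2000 UMIs (450 cells), which were added after these values were seen, 11 of 300 pairs reached 0.4. The highest pair was mt-Co3 with mt-Atp6 (0.58), both mitochondrial genes. Lcn2 went with Chil1 (0.52) and Lrg1 (0.47), Chil1 with Lrg1 (0.46), and Fabp5, a fatty acid carrier, with Lrg1 (0.43) and Dlk1 (0.41). Malat1 was negative with Lcn2 (−0.37). Another 2 of the 11 pairs involve Cxcl15, a criterion gene, and are not described. Meg3 went with Dmkn (0.48) and TdTomato (0.42), and TdTomato with Gm42418 (0.57). Dmkn also went with Lcn2 (0.34), so the genes did not fall into sets apart from each other. Meg3 with Dlk1 was 0.25, although the genes are neighbors. Within the 6 sets by column position, Lcn2 with Chil1 ran from 0.43 to 0.67, Lcn2 with Lrg1 from 0.25 to 0.61, Fabp5 with Dlk1 from 0.28 to 0.58 and Meg3 with Dlk1 from 0.21 to 0.49. Over the same sets TdTomato with Gm42418 ran from 0.011 to 0.39 with a median of 0.13, Meg3 with TdTomato from −0.04 to 0.32 with a median of 0.23, and Meg3 with Dmkn from 0.01 to 0.52 with a median of 0.33. TdTomato with Gm42418 and Meg3 with TdTomato were thus lower in every set than over all members. Meg3 with Dmkn was lower in most sets but not in all. Being lower in most sets did not set it apart, since this also held for Lcn2 with Chil1, Lcn2 with Lrg1 and Chil1 with Lrg1. The medians of those pairs over the sets were 0.49, 0.44 and 0.42. Sftpc, the most abundant transcript, reached at most 0.21 with any of the others. All points come from 1 pooled matrix and share its mice, libraries and ambient RNA, and a difference between mice would also give such correlations, which cannot be told apart here.

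**Figure D5:**
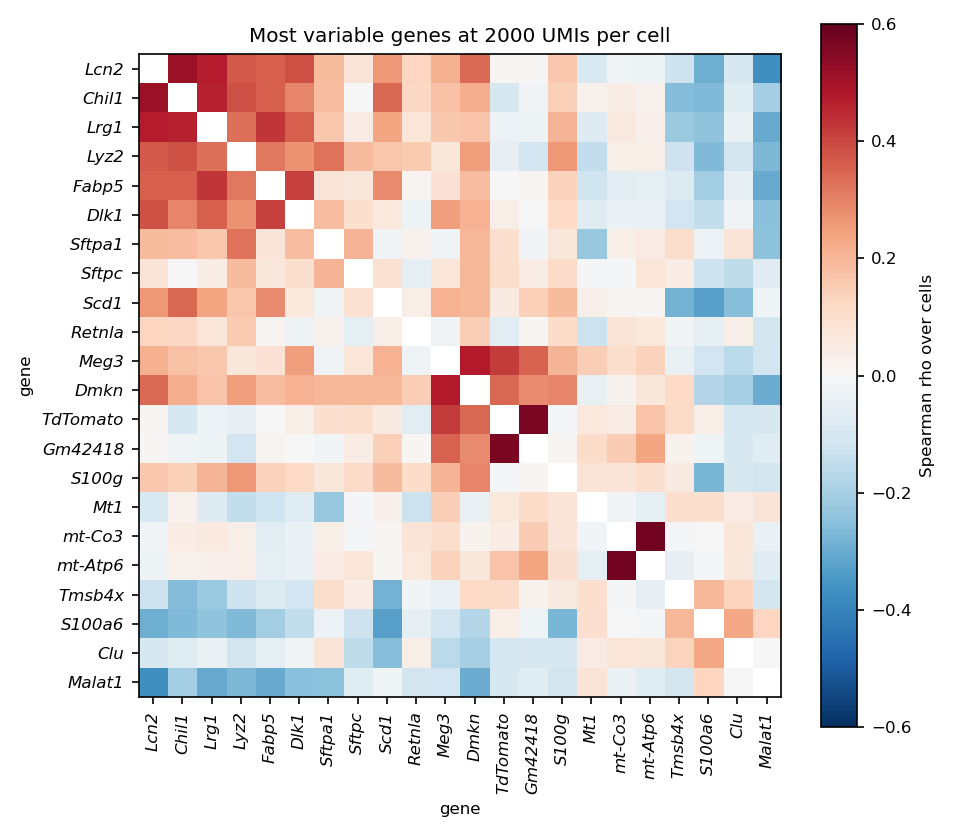
Spearman rank correlation between the most variable genes (Scgb1a1 and Scgb3a1, from 1 cell, left out) over 450 members thinned to 2000 UMIs, blue for negative and red for positive. The criterion gene Cxcl15 is left out too. Lcn2 and Chil1 stand at 0.52 at the upper left, TdTomato and Gm42418 at 0.57 and Dmkn and Lcn2 at 0.34.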

How the data were processed

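Microdissected lung tumors of 4 mice were profiled by droplet single-cell RNA sequencing. Per the labels and the study's methods, the authors made the deposited matrix of raw UMI counts per gene and cell with Cell Ranger 3.0.2 on mm10. A deposited feature table pairs the rows with gene symbols and holds no measurement. Replicates were pooled in 1 matrix and no map from cells to mice was used, so no test was run and no p-value is given. The study's step of leaving out TdTomato-positive cells outside the epithelium was not applied.

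Cells were kept at 200 or more detected genes and 13.4% or less mitochondrial UMIs. UMIs were summed per group with Python 3.11.15, numpy 2.4.6 and scipy 1.17.1, with exact Poisson, Clopper-Pearson and conditional 95% intervals. Genes at 50 CPM in either group were compared after adding 10 CPM, and a log2 ratio of 1 counted as past the limit. Shares were read after thinning to 1000 UMIs, leaving out shallower cells (2 members). Scrublet (in scanpy 1.11.5) was run on the pooled matrix with an expected doublet rate of 6%. It called 210 of 20299 cells doublets (1.03%), fewer than that rate, so doublets can remain among the cells. The called cells were kept and left out in an alternative. Named genes were all list members, the 10 most changed genes per direction and comparison (5 for TdTomato), leaving out criterion, mitochondrial and other-lineage genes, and the 15 most variable genes. Genes outside that rule that are named were chosen after their values were seen. The members and lists were chosen with earlier results of these data known. Scripts were tested on simulated data. One further allele shared by all mice and one marker gene are not reported here.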

Additional observations from a re-analysis of the deposited data

How the results depend on the processing

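No paired analysis was possible because the cells carry no sample, and leaving out each replicate was not possible for the same reason. The cause of the changes below was not tested. Over the alternatives, 10 of 1001 list log2 ratios changed direction from a value past 2-fold, as did 30 of 5317 log2 ratios of named genes. Another 240 and 859 of these ratios moved outside their reported intervals. So did 64 of 336 list levels and 199 of 1984 gene levels, which have no direction to change. Genes higher than in the second group (ATII-gated with Hopx) numbered 17 with at most the 98th percentile of genes per cell, 13 with 1 Hopx UMI allowed, 72 with the criteria read at 2000 UMIs, 1 with 50 CPM added and 2 at a minimum of 100 CPM; lower genes numbered 72, 8 with 50 CPM added and 33 at a minimum of 20 CPM. With 50 CPM added and minimums of 20 and 100 CPM, 326, 854 and 312 genes were higher than in all other cells and 126, 354 and 146 than in the third group. Lower genes numbered 1344 and 431 at those minimums against all other cells, and 231, 829 and 224 against the third group. TdTomato was found in 87.2% of members at 500 UMIs, 98.7% at 2000 and 99.6% unthinned.

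The airway list and its genes turned with the single cells that carry them. In the TdTomato alternative, the members, the second and the third group were limited to TdTomato-positive cells, while all other cells were not. The log2 ratios to all other cells, the second and the third group were then −2.91, 0.41 and −1.64 for airway and neuroendocrine genes. They were −3.24, 1.60 and −1.18 for Scgb1a1, and −4.65, −0.81 and −0.43 for Scgb3a1. Without members under 10 Sftpc UMIs, an alternative chosen after seeing the data, the values to all other cells and the third group were −3.59 and −2.53 for the airway list, −4.08 and −2.28 for Scgb1a1 and −4.63 and −0.024 for Scgb3a1, which was −1.75 to the second group. With the criteria read at 2000 UMIs they were −3.54 and −1.74, −3.97 and −1.43, and −5.25 and −0.16, while to the second group Scgb1a1 was 1.85, Lyz1 4.95, Cav1 0.11 and Mmp12 −0.10. With 1 Hopx UMI allowed, the values to the second group were 7.64 for the airway list, 8.28 for Scgb1a1, 2.10 for Lyz1 and 0.29 for Cp, and to the third group 0.77 for Chil3 and 0.15 for H2-Aa. With 1 Ptprc UMI allowed, Apoe and C1qa were −0.93 and −0.69 to the second group. At most the 98th percentile of genes gave 1.76 for Lyz1 to the second group and −3.56 for stromal markers to the third. To the third group, endothelial markers were 0.078 without doublets, Chil3 0.42 without cells over 1% other-lineage UMIs, Cd74 0.013 with TdTomato-positive cells only, and Mgp −0.10 as a mean of per-cell CPM.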

Other observations

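The rule left out cells with ATII transcripts. At 5% or more of UMIs from Sftpc there were 447 members, 97 ATII-gated cells with Hopx, 63 epithelial-gated cells below the ATII criterion and 101 cells outside the epithelial criteria, of which 74 had no Ptprc UMI. Median depth was 2036 UMIs in those 101 cells, against 4797 in the 447 members.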
